A study of Mus with 10 samples.

Results

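Ornithine decarboxylase, the antizymes and antizyme inhibitor that control its stability, and the enzymes that build and break down polyamines were examined in liver type 1 innate lymphoid cells (ILC1s) of NKp46-deficient mice. The members were taken by symbol as *Odc1*, *Srm*, *Sms*, *Amd1*, *Oaz1*, *Oaz2*, *Azin1*, *Sat1*, *Smox* and *Paox*. All 10 were found among the 24564 genes of the count table, 9 had counts, and these 9 were among the 11463 genes that passed the filter on low counts and were tested. The set was chosen by their measured difference between the genotypes in these same libraries, so every difference of a member is given as a description and without a test.

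ILC1s are tissue-resident lymphocytes, and NKp46 is an activating receptor encoded by *Ncr1*. Control ILC1s came from livers of C57BL/6 *Ncr1*+/+ mice and were sorted as lineage-negative NK1.1+CD49b-CD49a+ cells positive for NKp46. The NKp46-deficient ILC1s came from *Ncr1*gfp/gfp mice, also C57BL/6, in which *gfp* replaces *Ncr1* on both alleles. They were sorted through the same surface gate but by GFP instead of NKp46. The study's methods name the *Ncr1*+/+ mice as purchased, while its reporting summary names both strains as purchased. The mice are not said to be littermates, so a difference between colonies cannot be told apart from the genotype. Mice of both genotypes were between 6 and 8 weeks old by the study's methods, and untreated as far as the labels say. For each genotype 5 libraries were sequenced. The reporting summary also gives a wider age range, and states that mice were matched by age and sex. The study names male or female mice and speaks of RNA pools for this comparison. How many mice went into a library, and of which sex, is not given in the sources used here. The spread between libraries may therefore be partly technical.

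Polyamines are small, positively charged molecules that bind nucleic acids and that growing cells need. Ornithine decarboxylase makes putrescine from ornithine, and spermidine synthase and spermine synthase then add aminopropyl groups that come from decarboxylated S-adenosylmethionine. Antizymes bind ornithine decarboxylase and send it to the proteasome, an antizyme inhibitor takes antizyme away from it, and acetylation and oxidation return spermine and spermidine to putrescine or export. In lymphocytes *Odc1* is known as a target of MYC and as a gene that rises with activation.

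The libraries held between 17996935 and 22623133 counts in *Ncr1*+/+ and between 15796253 and 21975879 counts in *Ncr1*gfp/gfp ILC1s, so that 3 counts corresponded to between 0.132 and 0.190 CPM (counts scaled to a common library size with TMM factors). *Ncr1* had 2029 ± 99.97 CPM in *Ncr1*+/+ and 259 ± 97.5 CPM in *Ncr1*gfp/gfp ILC1s (SD, n = 5 each). The summed CPM of the 9 ILC1 markers in the table was between 4959 and 5178 in *Ncr1*+/+ and between 4974 and 5182 in *Ncr1*gfp/gfp libraries. Of these 9 markers 5 had log2 fold changes below 0 and 4 above 0, with a median of -0.12. *Itga1*, the gene of CD49a, which was part of the sort gate, was higher in *Ncr1*gfp/gfp ILC1s, at 971 ± 35.1 against 779 ± 30.4 CPM (SD, n = 5 each; Benjamini-Hochberg adjusted p = 0.000481, edgeR quasi-likelihood). It was the only one with an adjusted p under 0.05. *Ifng* had the lowest log2 fold change, -0.44, at 129 ± 27.0 against 175 ± 28.0 CPM (adjusted p = 0.0683, the same edgeR test). The 8 natural killer cell markers summed to between 476 and 487 CPM and between 471 and 530 CPM, most of it *Prf1*, and *Klra4* had no count. The 8 T cell markers summed to between 461 and 579 CPM in *Ncr1*+/+ and between 633 and 835 CPM in *Ncr1*gfp/gfp libraries, without overlap, and most of that sum was *Cd3g*. The 12 hepatocyte markers, most of whose sum was *Trf*, stood apart in *Ncr1*+/+ replicate 1 at 198 CPM and in *Ncr1*gfp/gfp replicate 3 at 235 CPM, and lay between 124 and 147 CPM in the other libraries. Macrophage markers lay between 5.90 and 71.4 CPM and B cell markers between 0.561 and 5.99 CPM, with overlap between the genotypes. All 7 tested macrophage markers had log2 fold changes below 0, between -0.92 and -0.19, and 0 were called.

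*Odc1* and *Smox* had fewer counts in *Ncr1*gfp/gfp ILC1s, and the other 7 tested members had overlapping values. *Odc1*, the gene of the enzyme that opens the pathway, was at 63.8% of its *Ncr1*+/+ level, and *Smox*, the gene of spermine oxidase, was at 53.01%. A gene was called when its adjusted p was under 0.05 (edgeR's quasi-likelihood test, Benjamini-Hochberg adjustment over all tested genes) and its fold change was above 1.5 or below 0.7. By this rule 2 of the 9 tested members were called lower and 0 were called higher, where 0.532% of all tested genes were called lower, 0.201% higher and 0.733% in either direction. Both called members were also without overlap between the genotypes, as were 1.82% of all tested genes with every *Ncr1*gfp/gfp library lower. Because the members were selected on this comparison, nothing is read from these shares. The median log2 fold change of the 9 members was -0.05, and that of all tested genes was 0.00.

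*Odc1* is listed on chromosome 12, plus strand, positions 17551679 to 17558308 (the table names no build for its coordinates), with 2547 bases of exon. Its CPM was 37.9, 29.1, 26.5, 27.9 and 24.3 in *Ncr1*+/+ replicates 1 to 5. In *Ncr1*gfp/gfp replicates 1 to 5 it was 22.6, 15.4, 20.9, 15.05 and 19.1. Every *Ncr1*gfp/gfp library was below every *Ncr1*+/+ library, but the ranges lay close, with the lowest *Ncr1*+/+ library 1.08 times the highest *Ncr1*gfp/gfp library. The means were 29.2 ± 5.20 and 18.6 ± 3.33 CPM (SD, n = 5 each), and the log2 fold change was -0.65 (standard error 0.14).

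Whether *Odc1* was called depended on single libraries. Its log2 fold change stayed between -0.73 and -0.54 whichever library was left out. *Ncr1*+/+ replicate 1, the highest of all in *Odc1*, was also the *Ncr1*+/+ library highest in hepatocyte markers. Without it the log2 fold change was -0.54 and *Odc1* was no longer called. The call was also lost without *Ncr1*gfp/gfp replicate 2, at -0.59, and without *Ncr1*gfp/gfp replicate 4, at -0.58, which were the libraries lowest in *Odc1*. With both libraries that stood apart in hepatocyte markers left out, the log2 fold change was -0.58 and the gene was not called. In bulk libraries, fewer cells with a transcript and less transcript per cell cannot be told apart.

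Some markers of T cells moved with the genotype as well. Of the 5 T cell markers tested, 2 were called higher in *Ncr1*gfp/gfp ILC1s, the group in which *Odc1* and *Smox* were lower. *Cd3e* rose from 5.72 ± 1.71 to 21.1 ± 12.7 CPM and *Cd8a* from 6.69 ± 3.31 to 19.4 ± 9.96 CPM (SD, n = 5 each). Their Benjamini-Hochberg adjusted p was 0.00235 and 0.0248 (edgeR quasi-likelihood). *Cd3g*, at 501 ± 53.1 and 687 ± 74.6 CPM, passed the limit on the adjusted p but not that on the fold change, and *Cd3d*, at 6.62 ± 2.06 and 13.6 ± 5.78 CPM, missed the limit on the adjusted p (0.0527, the same edgeR test). *Cd4*, the remaining tested marker, overlapped between the genotypes at 1.95 ± 0.953 and 2.31 ± 1.64 CPM. Among the markers that failed the filter, *Cd8b1* went the other way, from 0.304 ± 0.345 to 0.0106 ± 0.0237 CPM. *Cd5*, at 0.121 ± 0.189 and 0.919 ± 1.08 CPM, and *Cd6*, at 0.0189 ± 0.0260 and 0.424 ± 0.489 CPM, had higher means. The part of the T cell and hepatocyte markers in the differences of *Odc1* and *Smox* was not tested.

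*Smox* encodes the oxidase that converts spermine directly back to spermidine, and is listed on chromosome 2, plus strand, positions 131317598 to 131350919, with 2262 bases of exon. Its CPM was 14.0, 11.8, 13.2, 10.1 and 13.0 in *Ncr1*+/+ replicates 1 to 5. In *Ncr1*gfp/gfp replicates 1 to 5 it was 6.03, 4.43, 7.20, 7.97 and 7.32. The groups stood further apart than for *Odc1*, with the lowest *Ncr1*+/+ library 1.27 times the highest *Ncr1*gfp/gfp library. The means were 12.4 ± 1.49 and 6.59 ± 1.39 CPM (SD, n = 5 each), and the log2 fold change was -0.92 (standard error 0.18). *Smox* was called whichever of the 10 libraries was left out, with log2 fold changes between -0.99 and -0.80, and without both libraries high in hepatocyte markers it was -0.91 and still called.

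**Figure D1:**
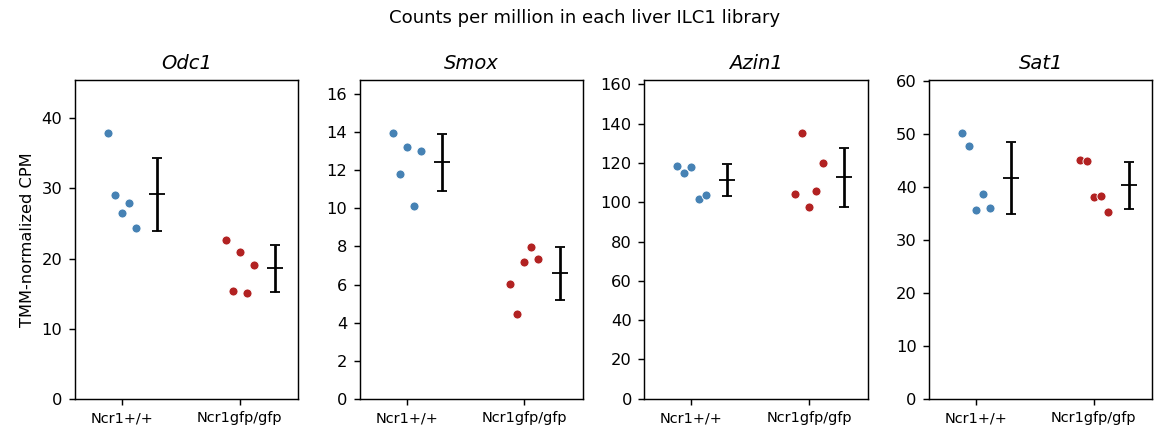
TMM-normalized CPM (linear axes from 0) of *Odc1*, *Smox*, *Azin1* and *Sat1* in each library, with *Ncr1*+/+ in blue and *Ncr1*gfp/gfp in red; each point is 1 library and the black bars are the mean ± SD of 5 libraries. The red points lie below all blue points for *Odc1* and *Smox*, and the groups overlap for *Azin1* and *Sat1*.

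The aminopropyl transferases downstream of ornithine decarboxylase had overlapping values. *Srm*, the gene of spermidine synthase on chromosome 4, plus strand, positions 147965622 to 147968728, had 9.31, 9.40, 5.85, 10.2 and 11.8 CPM in *Ncr1*+/+ replicates 1 to 5 and 6.98, 11.3, 8.47, 10.2 and 7.02 CPM in the *Ncr1*gfp/gfp libraries. Its lowest value was in an *Ncr1*+/+ library, and its log2 fold change was -0.08 (standard error 0.20). *Sms*, the gene of spermine synthase on chromosome X, minus strand, positions 153881886 to 153929978, had 19.3, 20.2, 22.3, 18.2 and 24.6 CPM in *Ncr1*+/+ replicates 1 to 5 and 21.8, 22.4, 20.01, 24.5 and 20.1 CPM in the *Ncr1*gfp/gfp libraries. Both the lowest and the highest *Sms* library were *Ncr1*+/+, and the log2 fold change was 0.06 (standard error 0.12).

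No value can be given for *Amd1*, which encodes the S-adenosylmethionine decarboxylase that supplies the aminopropyl groups. It is listed at 0 counts in all 10 libraries, but a second row, *Amd2*, covers 14722 of its bases on the same strand and is also listed at 0, and only 9 exon bases of *Amd1* lie outside that row. Reads that fall on 2 rows at once appear to have been left out of the counting. Of the 366 rows that share at least 90% of their span with another row on the same strand, 89.1% are at 0 in every library, against 32.4% of all rows. The zeros of *Amd1* therefore do not show that the gene was silent.

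The regulators of ornithine decarboxylase did not separate by genotype. *Azin1* encodes antizyme inhibitor, which resembles the decarboxylase and binds antizyme in its place. It had 119, 115, 118, 102 and 104 CPM in *Ncr1*+/+ replicates 1 to 5 and 104, 135, 97.6, 106 and 119.9 CPM in the *Ncr1*gfp/gfp libraries. The *Ncr1*gfp/gfp values spread to both sides of the *Ncr1*+/+ values, and the log2 fold change was 0.02 with the smallest standard error of the members, 0.08. *Oaz2*, the gene of an antizyme, had 11.1 ± 1.29 CPM in *Ncr1*+/+ and 10.7 ± 1.49 CPM in *Ncr1*gfp/gfp ILC1s (SD, n = 5 each), and its log2 fold change was -0.05 (standard error 0.16).

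*Oaz1*, the gene of the most widely expressed antizyme, had 7.53 ± 0.877 and 7.97 ± 1.60 CPM (SD, n = 5 each) and a log2 fold change of 0.08 (standard error 0.19). Its counts probably came from a small part of the transcript. A row named *Oaz1-ps*, listed at 0, lies within *Oaz1* on the same strand, and 113 of the 1075 exon bases of *Oaz1* lie outside it. The *Mir1982* row also overlaps 74 bases of the gene. The level of *Oaz1* per length is therefore not interpretable and was left out of the order of levels, and only its ratio between genotypes is given.

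Among the catabolic genes other than *Smox*, *Sat1* had the higher level per exon length. *Sat1* encodes the acetyltransferase that marks spermidine and spermine for export or oxidation, and had 50.2, 47.7, 35.6, 38.7 and 36.0 CPM in *Ncr1*+/+ replicates 1 to 5. It had 45.1, 44.8, 38.1, 38.2 and 35.2 CPM in the *Ncr1*gfp/gfp libraries. Replicates 1 and 2 were the highest in both genotypes, the values overlapped throughout, and the log2 fold change was -0.05 (standard error 0.11). *Paox*, whose enzyme oxidizes the acetylated polyamines, had between 9 and 36 counts per library. At that depth its 1.28 ± 0.582 and 1.09 ± 0.703 CPM (SD, n = 5 each) gave a log2 fold change of -0.24 with a standard error of 0.55, so a difference the size of that in *Smox* was not detectable.

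**Figure D2:**
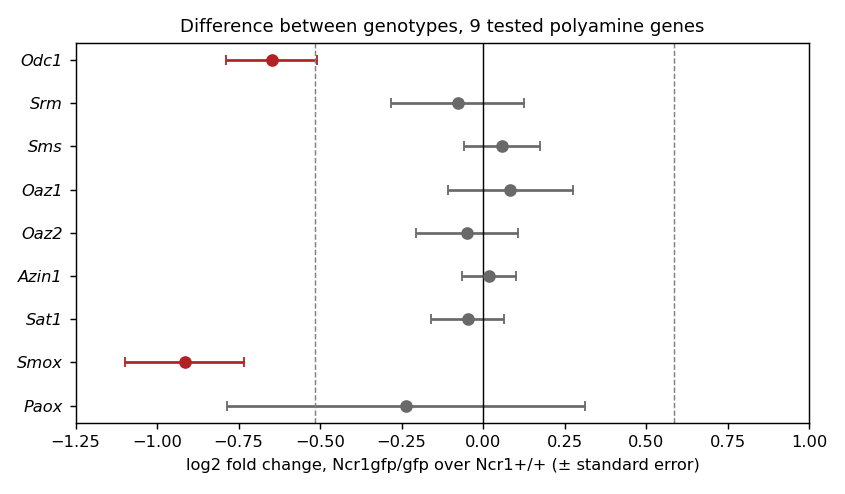
Log2 fold change of *Ncr1*gfp/gfp over *Ncr1*+/+ ILC1s (horizontal axis) for the 9 tested polyamine genes, with bars of ± 1 standard error; red marks the called genes and the dashed lines mark fold changes of 0.7 and 1.5. *Odc1* at -0.65 and *Smox* at -0.92 lie left of the lower dashed line, and the other 7 lie between -0.24 and 0.08.

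Levels were compared between genes only per kilobase of exon, for the 8 members other than *Amd1* and *Oaz1*. In *Ncr1*+/+ ILC1s *Sat1* was highest, at 32.6 CPM per kb, followed by *Azin1* at 21.5 and *Odc1* at 11.4. Each of these lay above the next gene without overlap. *Srm* at 7.02, *Sms* at 6.20, *Oaz2* at 6.01 and *Smox* at 5.49 CPM per kb followed, and neighbours among these 4 overlapped. *Paox* was lowest, at 0.727 CPM per kb. Among all tested genes, ranked by level per length over all libraries, *Sat1* stood at the 80.7th percentile, *Azin1* at the 70.1st, *Odc1* at the 44.9th, *Smox* at the 27.0th and *Paox* at the 8.01st.

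In *Ncr1*gfp/gfp ILC1s the order of the means was the same, but the distances between neighbours were not. *Odc1*, at 7.30 CPM per kb, overlapped *Srm* at 6.63, and *Srm*, *Sms* at 6.45 and *Oaz2* at 5.80 overlapped their neighbours. *Smox*, at 2.91 CPM per kb, lay below *Oaz2* without overlap. By the medians, *Sms* and *Oaz2* change places in *Ncr1*+/+ and *Srm* and *Sms* in *Ncr1*gfp/gfp ILC1s. As a share of the summed level per length of the 8 genes, *Odc1* made up 12.5% in *Ncr1*+/+ and 8.86% in *Ncr1*gfp/gfp, and *Smox* 6.05% and 3.56%. *Sat1* made up 35.7% and 37.9%.

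**Figure D3:**
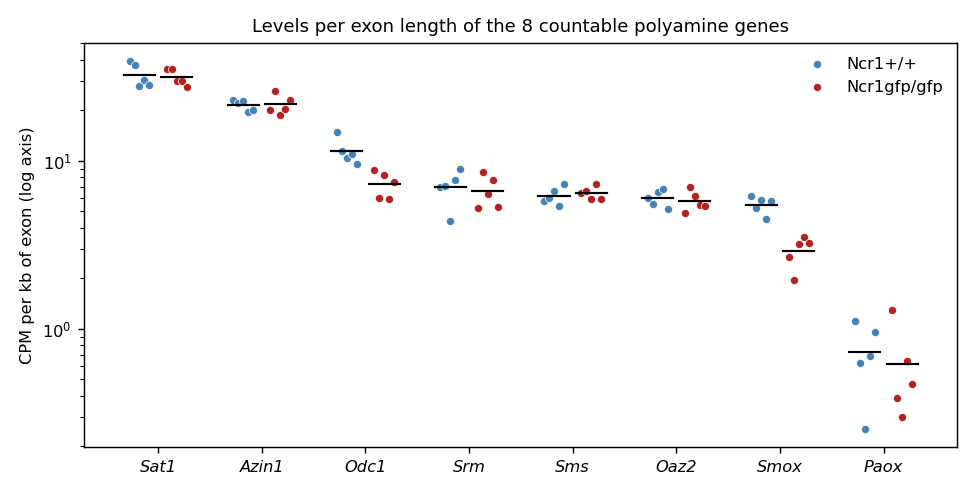
CPM per kb of exon (log axis) for 8 polyamine genes in each library, with *Ncr1*+/+ in blue, *Ncr1*gfp/gfp in red and a black line at the mean of 5 libraries. *Odc1* stands above *Srm* in every *Ncr1*+/+ library and overlaps it in *Ncr1*gfp/gfp libraries, and *Smox* drops below *Oaz2*.

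Ratios within a library do not depend on how the library was scaled. The ratio of *Odc1* to *Azin1* per length was 0.532 ± 0.0764 in *Ncr1*+/+ and 0.344 ± 0.0917 in *Ncr1*gfp/gfp ILC1s (SD, n = 5 each), with ranges of 0.458 to 0.650 and 0.232 to 0.441. The ratio of *Odc1* to *Sat1* was 0.352 and 0.234, and that of *Smox* to *Sat1* was 0.172 and 0.0947, both also without overlap. The ratios of *Odc1* to *Sms*, 1.89 and 1.15, and of *Odc1* to *Srm*, 1.72 and 1.17, overlapped between the genotypes. The ratio of *Smox* to *Odc1* was 0.488 and 0.408 and overlapped as well. These ratios use the same counts as the differences above and were not tested.

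Across the 10 libraries, as deviations of log2 CPM from the mean of each genotype, the genes most like *Odc1* among 8255 genes with a mean of at least 10 CPM were *Tbk1* (Pearson's r = 0.94), *Spata13* (0.94), *Ero1lb* (0.93), *Etfbkmt* (0.93) and *Ppard* (0.93). Of the members, *Sat1* had r = 0.49 and *Smox* r = 0.21 with *Odc1*, *Srm* had -0.42 and *Sms* -0.64. These values describe 10 points that share library depth and preparation, and the highest of so many values are high by selection.

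Of 62 genes listed around the polyamine enzymes, 37 were tested and 0 were called by edgeR's quasi-likelihood test or by DESeq2. At an unadjusted p under 0.05 there were 8, where 11.4% of all tested genes were under it. Their log2 fold changes were below 0 for 20 and above 0 for 17, with a median of -0.03. In 4 of the 37 every *Ncr1*gfp/gfp library was lower, where this held for 1.82% of all tested genes. In 1 of the 37 every *Ncr1*gfp/gfp library was higher, where this held for 1.28% of all tested genes.

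Of the genes that supply ornithine and arginine, 8 of 16 were tested and 0 were called. The pair with the highest level per length were *Slc3a2*, the heavy chain of several amino acid transporters, with a log2 fold change of -0.03 (standard error 0.07), and *Asl*, which makes arginine, with 0.02 (standard error 0.11). *Arg1*, whose product makes ornithine from arginine, had the largest change of the list and is named after its values were seen. Its CPM was 7.57, 8.21, 5.85, 3.79 and 7.89 in *Ncr1*+/+ and 0, 2.01, 2.22, 1.72 and 3.33 in the *Ncr1*gfp/gfp libraries, replicates 1 to 5 each. The groups did not overlap, but with a log2 fold change of -1.83 (standard error 0.49) the gene missed the threshold (Benjamini-Hochberg adjusted p = 0.0710, edgeR quasi-likelihood). It passed when *Ncr1*gfp/gfp replicate 1, which had no *Arg1* count, or replicate 5 was left out.

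In the methionine cycle and the salvage of methylthioadenosine, the by-product of the aminopropyl transfers, 13 of 16 genes were tested. *Ahcyl2*, a relative of the S-adenosylhomocysteine hydrolase *Ahcy*, fell from 158 ± 14.7 to 115 ± 9.38 CPM (SD, n = 5 each) without overlap. Its log2 fold change was -0.46 with a standard error of 0.07 (Benjamini-Hochberg adjusted p = 0.00168, edgeR quasi-likelihood), so it passed the limit on the adjusted p but not that on the fold change. The hydrolase itself, named after its values were seen, was at 3.48 ± 1.10 and 2.04 ± 0.876 CPM with overlap (SD, n = 5 each).

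None of the other lists held a gene with an adjusted p under 0.05. The 4 genes of eIF5A hypusination, in which spermidine is used to modify a translation factor, were all tested, and *Eif5a* and *Dhps* had log2 fold changes of -0.08 (standard error 0.07) and -0.14 (standard error 0.11). Of 14 genes of polyamine transport and further catabolism 3 were tested, among them *Atp13a3*, a polyamine transporter, with 0.14 (standard error 0.06), and *Aldh9a1*, an aldehyde dehydrogenase, with 0.03 (standard error 0.10). The remaining tested gene, *Atp13a2*, named after its values were seen, had the largest change of this list, -0.37 (standard error 0.12). It was at 27.0 ± 1.83 and 20.9 ± 3.10 CPM with overlap (SD, n = 5 each; Benjamini-Hochberg adjusted p = 0.143, edgeR quasi-likelihood). Of 12 genes of the MYC network 9 were tested, and the most abundant per length were *Mxd4*, with 0.23 (standard error 0.08), and *Mlxip*, with -0.07 (standard error 0.05). *Myc*, named after its values were seen, had 87.8 ± 10.4 CPM in *Ncr1*+/+ and 71.1 ± 6.53 CPM in *Ncr1*gfp/gfp ILC1s (SD, n = 5 each). Its values overlapped and its log2 fold change was -0.30 with a standard error of 0.09 (Benjamini-Hochberg adjusted p = 0.0902, edgeR quasi-likelihood). *Mxd1*, also named after its values were seen, was the only gene of this list without overlap. It was at 132 ± 7.29 CPM in *Ncr1*+/+ and 114 ± 1.86 CPM in *Ncr1*gfp/gfp ILC1s (adjusted p = 0.0805, the same edgeR test).

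**Figure D4:**
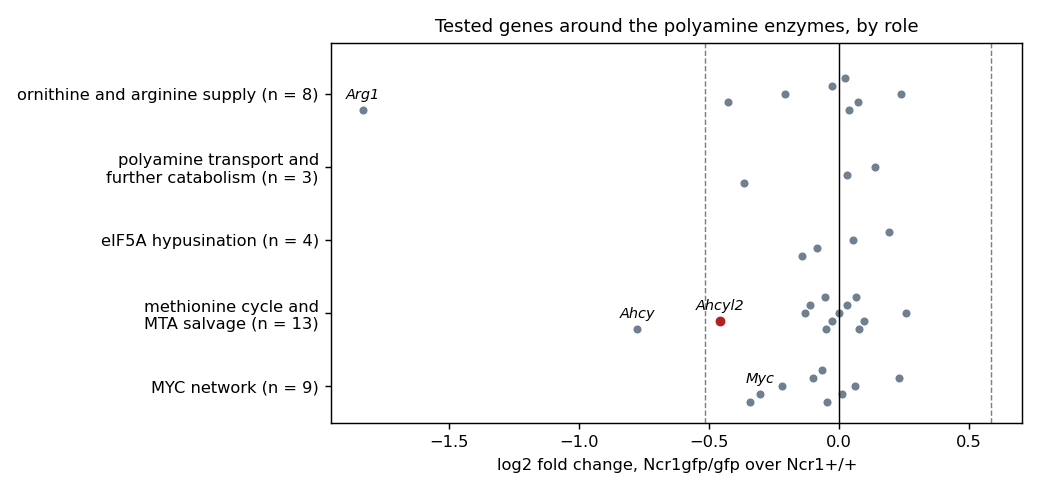
Log2 fold change of *Ncr1*gfp/gfp over *Ncr1*+/+ ILC1s (horizontal axis) for the 37 tested genes around the polyamine enzymes, grouped by role, where each point is 1 gene, heights within a row only keep points apart, MTA is methylthioadenosine and the dashed lines mark fold changes of 0.7 and 1.5. *Ahcyl2*, in red, is the only gene with an adjusted p under 0.05; *Arg1* lies farthest from 0, at -1.83.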

How the data were processed

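Total RNA (2 ng) of sorted liver ILC1s was amplified with a polyA-primed kit (SMART-Seq v4) that does not mark strand, and sequenced as single reads of 51 cycles. Trimming with Trimmomatic and FASTP, mapping with STAR and gene-level counting with HTSeq were done by the authors; the deposited values are raw counts, without normalization. Reads on 2 overlapping rows of the same strand appear not to have been counted, which bears on *Amd1* and *Oaz1*. That rule was inferred from the zeros at such rows, since the study states only that HTSeq ran with default parameters. How strand was handled in the counting is not described. Libraries were grouped by the genotype in the labels. The study states that reads were mapped to mm10, which is GRCm38. The table's coordinates nevertheless differ from GRCm38.p6 (0 of 10 members share a start), so they are given as listed.

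Genes were filtered with filterByExpr, scaled by TMM and fitted in edgeR 4.0.16 (quasi-likelihood, Benjamini-Hochberg adjustment) under R 4.3.3, which was tested on simulated data first. DESeq2 1.42.0 and limma 3.58.1 (voom with quality weights) served as alternatives, beside other scalings, filters and thresholds, a replicate block and leaving out each library. CPM per kb used the exon length in the table. Counting error is only part of the spread; PCR copies were not separated. In 20 same-genotype pairs the chi-square per gene was between 9.18 and 24.0, so no library was taken as a repeat sequencing of another. The value cannot tell separate animals from separate preparations of a shared RNA pool.

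The members, gene lists and marker lists were chosen with earlier results of these data known. Named are all members, the called genes of each pathway list, those with an adjusted p under 0.05 and otherwise the pair highest per length, the 5 genes most like *Odc1*, and *Ncr1*. Single marker genes (*Itga1*, *Ifng*, the CD3 genes, *Cd4*, *Cd5*, *Cd6*, *Cd8a*, *Cd8b1*, *Prf1*, *Klra4*, *Trf* and *Alb*) and any gene so described were chosen after their values were seen. No sequences were used here.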

Additional observations from a re-analysis of the deposited data

Results flagged for a closer look

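In 44 groups of 5 libraries, 2 held a library far from the other 4, and 1 in 20 groups, or 2.2 of 44, would be so by chance. Both concern the summed hepatocyte markers. *Ncr1*+/+ replicate 1 had 198 CPM, where the next library had 147 CPM. *Ncr1*gfp/gfp replicate 3 had 235 CPM, where the next had 147 CPM. *Alb* was at 28.0 CPM in the former and 38.0 CPM in the latter. *Odc1* was at 37.9 and 20.9 CPM in these libraries and *Smox* at 14.0 and 7.20 CPM. No member had a library that stood apart in this way.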

How the results depend on the processing

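The number of members called was 2 in the reported fit and, over the fits that left out 1 library, between 1 and 2. It was 1, *Smox*, without both libraries highest in hepatocyte markers (chosen after seeing the data) and 0 with an absolute log2 fold change above 1. *Odc1* was called in 15 of 19 alternative fits. Its log2 fold change was between -0.73 and -0.54 over the leave-outs, of which 7 of 10 kept the call, and -0.58 without both libraries. *Smox* was called in 19 of 19, and the other 7 members in 0 of 132 fits. For the 37 pathway genes, 1 (*Arg1*) was called with no filter and with the likelihood ratio test, 1 (*Ahcyl2*) by adjusted p alone, and between 0 and 1 over the leave-outs. Of all genes, 84 were called, and 131 with no filter, 138 with the likelihood ratio test, 155 by adjusted p alone and 23 with an absolute log2 fold change above 1. The other limits on the adjusted p and the fold change move these counts by construction; for the other settings the cause was not tested. Same-numbered libraries of the genotypes did not deviate together (correlations between -0.02 and 0.04), so the numbers do not pair them. With the replicate block 87 genes and 2 members were called and *Odc1* was at -0.65. Depth limited *Paox*, and overlapping rows *Amd1* and *Oaz1*.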
